A study of Mus musculus with 9 samples.

Results

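The proteasome genes of mouse meningeal lymphatic endothelial cells (MLECs) were examined in control mice and in mice bearing intracranial tumors. The members were all genes whose symbol starts with Psma, Psmb, Psmc, Psmd or Psme followed by a digit, which selected 45 of the 24321 genes of the expression table. The rule reads the symbol and uses no measured value. RNA-seq libraries had been made from 3 control, 3 GL261 and 3 B16 samples. Per the labels, male mice received 100000 GL261 cells (a mouse glioma line), 100000 B16 cells (a mouse melanoma line) or PBS alone into the cisterna magna at an age of 7 to 8 weeks, and all are labelled as 10 weeks old. The methods describe wild-type C57BL/6 mice, to which both lines are syngeneic. Per the labels, MLECs were collected about 3 weeks after GL261 and about 2 weeks after B16 injection, with no time listed for the controls. By these times the tumor and the time since injection cannot be told apart. The paper's results instead give 2 weeks for all 3 groups, and its methods give 2 to 3 weeks. Each sample pooled the meninges of 6 mice, from which 10 sorted cells (stained for CD31, CD45 and LYVE-1 per the labels, and gated as negative for CD45 and positive for CD31 and PDPN per the methods) were taken for 1 Smart-seq2 library, a full-length method for few cells.

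The proteasome is the complex that degrades ubiquitin-tagged proteins. Its 20S core is a barrel of alpha and beta rings, and the active sites lie in the beta subunits Psmb5, Psmb6 and Psmb7. The 19S regulatory particle, built from Psmc ATPases and Psmd subunits, caps the core, binds tagged proteins, unfolds them and feeds them into the barrel. In cells exposed to interferon-gamma, and constitutively in many leukocytes, newly made cores take up Psmb8, Psmb9 and Psmb10 in place of Psmb5, Psmb6 and Psmb7 respectively, which gives the immunoproteasome. Interferon-gamma also induces Psme1 and Psme2, the subunits of the PA28 activator, an alternative cap. Peptides cut by these forms are carried by the Tap1-Tap2 transporter to MHC class I molecules, and lymphatic endothelium is known to present antigens. Psmb8, Psmb9, Psmb10, Psme1 and Psme2 are called here the interferon-inducible members, and 14 constitutive 20S subunits with 17 subunits of the 19S particle are called the 31 core subunits. The other 9 members were Psma8 and Psmb11 (forms of testis and thymus), Psmd5, Psmd9 and Psmd10 (chaperones that help to build the 19S base), Psme3 and Psme4 (PA28 gamma and PA200, activators found in the nucleus), Psme2b (a copy of Psme2), and Psmc3ip, a meiotic recombination factor that only shares the symbol pattern.

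Values are FPKM, fragments scaled to transcript length and to the fragments mapped in the library. Effects of the 18 PCR cycles that differ between genes were not measured. Levels set side by side between genes carry that limit. The table holds no read counts, so the number of reads behind each value is unknown, and the number of libraries limits the precision. Aligned reads per library, listed by the study, were used only as a covariate in 1 alternative. Control libraries held 7303 to 8688 genes above 0, GL261 libraries 9456 to 10852 and B16 libraries 8736 to 9950. Correlations of log2(FPKM + 1) between libraries of the same group ranged from 0.650 to 0.873. The share of the summed FPKM taken by the members lay between 0.761 and 0.902% for control, between 0.837 and 1.02% for GL261 and between 0.747 and 0.936% for B16, and these ranges overlap. A value of exactly 0 in libraries of 10 cells may be a missed transcript, so such a gene is said to be listed at 0. Control replicate 1 and B16 replicate 1 each listed 2 of the 3 immunosubunits at 0, so the differences of the immunosubunits that either library moved most are also given without it. Lyve1 (628 to 1895 FPKM) and Pecam1 (149.5 to 468 FPKM), which encodes CD31, were above 0 in all 9 libraries, while Ptprc, which encodes CD45, was listed at 0 in all 9. Other leukocyte markers were above 0 in every library and are given below. Prox1, the lymphatic identity factor, was at 20.9 to 42.2 FPKM in control and 1.87 to 16.5 FPKM in the tumor-associated libraries, so it was lower there but never at 0.

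All 31 core subunits were above 0 in all 9 libraries, against 18.6% of all genes and 45.3% of the genes tested. Those shares include genes at far lower levels than the core subunits, so they are not matched for level. Over the 9 libraries, mean levels of the constitutive 20S subunits ran from 156 FPKM for Psma5 to 472 FPKM for Psmb2, with a median of 274 FPKM. Mean levels of the 19S subunits ran from 35.2 FPKM for Psmd13 to 187 FPKM for Psmc4, with a median of 87.6 FPKM. The median 20S subunit was 2.48 to 4.07 times the median 19S subunit in each of the 9 libraries. This excess of the core particle over its cap, in FPKM, was thus seen in every library. The SD within groups on the log2(FPKM + 1) scale had a median of 0.43 over the core subunits, with the lowest value for Psma3 (0.20) and the highest for Psmd13 (0.95). The corresponding median was 0.59 over the 1710 genes that were above 0 in all libraries with mean FPKM in the range of the core subunits. These genes share that range but were not matched on levels within it, so steadiness beyond expression level was not tested. For the interferon-inducible members the SD ran from 0.26 for Psme1 to 2.70 for Psmb9, and Psmb9 was listed at 0 in 2 libraries.

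**Figure D1:**
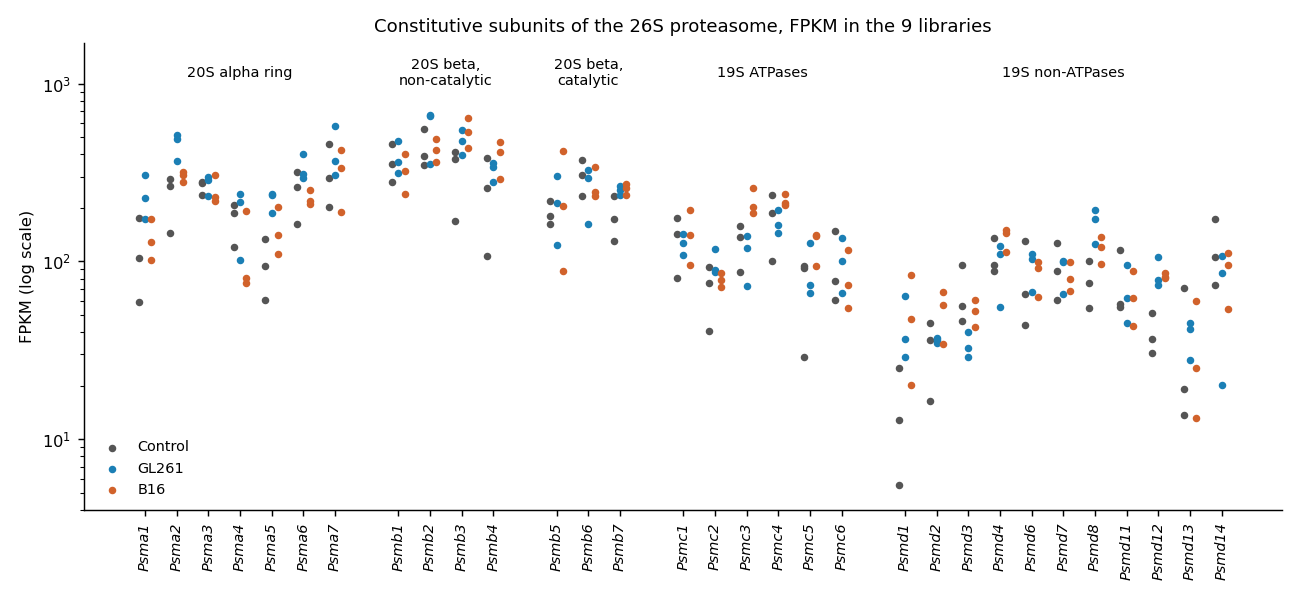
FPKM (log scale) of the 31 constitutive subunits of the 26S proteasome, 1 point per library, in 3 Control, 3 GL261 and 3 B16 libraries. The 20S subunits, with mean levels of 156 to 472 FPKM, lie mostly above the 19S subunits, with mean levels of 35.2 to 187 FPKM, and the groups overlap for most genes.

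To ask whether tumors alter the immunoproteasome of MLECs, the immunosubunits were described first. Psmb8, which replaces Psmb5, was at 0, 33.4 and 107 FPKM in control replicates 1, 2 and 3, at 501, 331 and 262 FPKM in GL261 and at 80.4, 65.0 and 101 FPKM in B16. All 3 GL261 libraries were thus above all other libraries, while control and B16 overlapped. Psmb9, which replaces Psmb6, was at 0, 28.8 and 74.5 FPKM in control, at 219, 245 and 234 FPKM in GL261 and at 0, 67.4 and 40.9 FPKM in B16. The order of the groups was the same as for Psmb8, with the lowest GL261 library far above the highest of the others. Psmb10, which replaces Psmb7, was at 54.4, 69.4 and 45.6 FPKM in control, at 162, 150.0 and 102 FPKM in GL261 and at 0, 97.0 and 52.2 FPKM in B16. Again no control or B16 library reached the lowest GL261 library, although B16 replicate 2 came close to it.

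Of the PA28 subunits, Psme1 was at 277, 331 and 221 FPKM in control, at 336, 286 and 373 FPKM in GL261 and at 149, 174 and 117 FPKM in B16. GL261 and control overlapped for Psme1, and all B16 libraries lay below both. Psme2 was at 221, 55.6 and 319 FPKM in control, at 496, 323 and 293 FPKM in GL261 and at 144, 158 and 208 FPKM in B16. For Psme2 only GL261 and B16 were separate, and control overlapped with both. The mouse annotation has no entry named Psme2b, and its entry Psme2b-ps, taken to be the same gene, differs from Psme2 at 5 of 720 coding bases. Reads of Psme2 and Psme2b may thus have been shared between them, and the values of Psme2 carry that uncertainty.

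**Figure D2:**
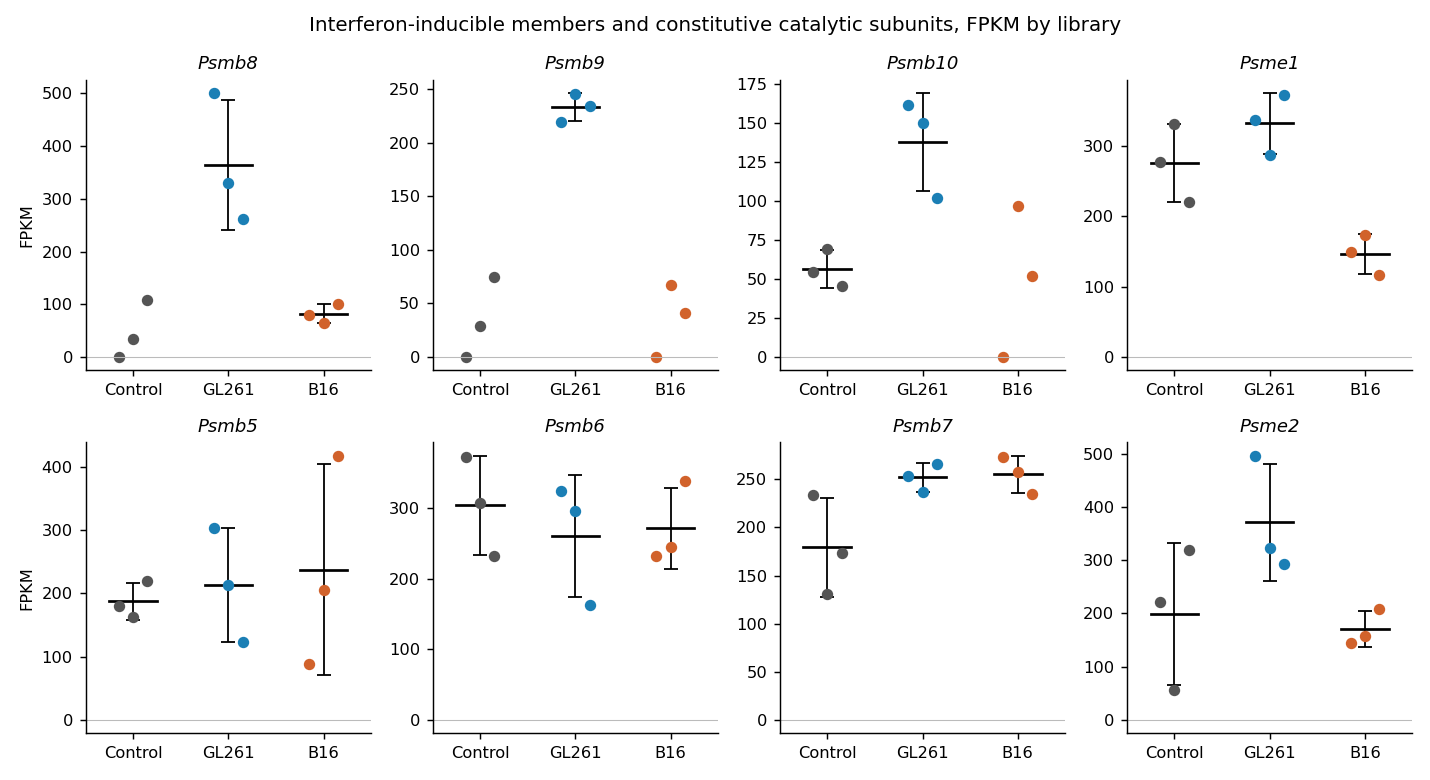
FPKM by library for the interferon-inducible members and the constitutive catalytic subunits, with 3 points per group (Control, GL261, B16). Bars show mean and SD and are left out where a library is listed at 0. For Psmb8, Psmb9 and Psmb10 the 3 GL261 libraries lie above all others, whereas Psmb5 and Psmb6 overlap between the groups.

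The constitutive partners of the immunosubunits did not share this order. Psmb5, the chymotrypsin-like subunit, was at 187 ± 29.5 FPKM in control, 213 ± 90.4 FPKM in GL261 and 238 ± 167 FPKM in B16 (SD, n = 3 each), and its 9 values overlapped throughout. Psmb6, the caspase-like subunit, was at 304 ± 70.6, 261 ± 86.6 and 272 ± 58.0 FPKM in the same groups, again with overlap. Psmb7, the trypsin-like subunit, was at 179 ± 51.8 FPKM in control, 252 ± 15.04 FPKM in GL261 and 255 ± 19.2 FPKM in B16. The highest control library of Psmb7 (233.9 FPKM) lay just under the lowest tumor library (235 FPKM), so the groups were separate by a small gap in the values as deposited. The FPKM of all genes summed to 652636 to 693117 in control and to 701951 to 888312 in the tumor-associated libraries. The small gap of Psmb7 therefore depends on the scaling. Summed, Psmb5, Psmb6 and Psmb7 gave 601 to 787 FPKM in control, 552 to 882 FPKM in GL261 and 594 to 992 FPKM in B16.

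The immunosubunits made up a larger part of the catalytic mRNAs in GL261 than in either other group. Psmb8, Psmb9 and Psmb10 together took 6.46, 18.0 and 26.7% of the summed FPKM of the 6 catalytic genes in control, 49.99, 49.4 and 52.0% in GL261 and 11.9, 24.5 and 16.3% in B16. The 3 GL261 libraries lay close together (50.5 ± 1.40%, SD, n = 3) and above every library of the other groups, and control and B16 overlapped. Psmb8 alone took 0, 17.1 and 32.8% of Psmb8 plus Psmb5 in control, 62.2, 60.8 and 68.1% in GL261 and 47.6, 24.0 and 19.4% in B16. These are shares of mRNA, and the subunits in assembled proteasomes were not measured.

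**Figure D3:**
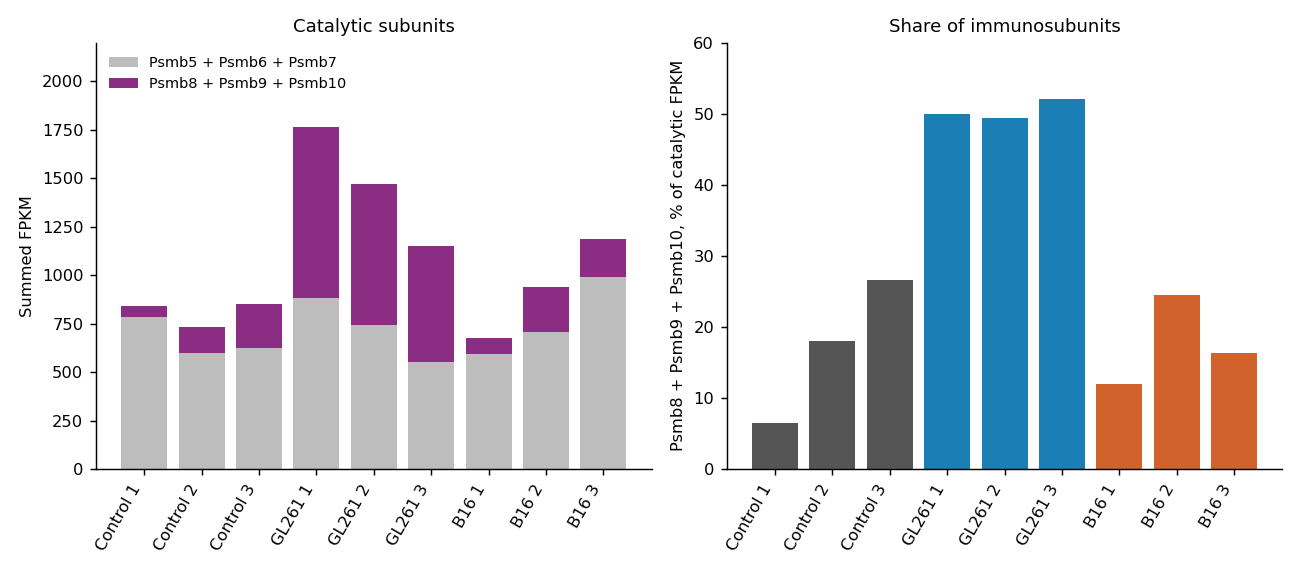
Left, summed FPKM of the constitutive catalytic subunits Psmb5, Psmb6 and Psmb7 (grey) and of the immunosubunits Psmb8, Psmb9 and Psmb10 (purple) in each of the 9 libraries. Right, the immunosubunits as a percentage of all 6, which is 49.4 to 52.0% in GL261 and at most 26.7% in the control and B16 libraries.

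The within-library ratio of each immunosubunit to its partner was then compared between the 6 tumor-associated and the 3 control libraries, as GL261 and B16 were joined in the study. The log2 ratio of Psmb8 to Psmb5 was 3.36 higher in tumor-associated MLECs (mean -0.23 against -3.59), and 4 of the 84 divisions of the libraries into 6 and 3 gave a difference as large (two-sided exact permutation test, p = 0.0476, where the smallest possible p is 0.0119). That call was lost without several single libraries. With 1 library left out, fewer divisions remain (28 without a control library, 56 without a tumor-associated library), so the smallest possible p is higher. Those p-values therefore cannot be set directly against that of all 9 libraries. Only leaving out control replicate 1 brought the difference well below 3.36. Without control replicate 1, in which Psmb8 was listed at 0, the difference was 1.41 (exact permutation p = 0.286). The p was also above 0.05 without control replicate 2 (4.03, p = 0.107), without any 1 of the GL261 libraries (3.10 to 3.19, p = 0.0893) or without B16 replicate 1 (3.34, p = 0.0893), in the same exact permutation test. The ratio of Psmb9 to Psmb6 differed by 2.34 (p = 0.321) and that of Psmb10 to Psmb7 by -0.76 (p = 0.881), in the same exact permutation test. By that exact permutation test the former was 0.33 (p = 0.929) without control replicate 1, and the latter turned to 0.39 (p = 0.393) without B16 replicate 1. These are 3 unadjusted p-values, none of which would pass 0.05 after adjustment over the 3 ratios.

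Across all genes, limma on log2(FPKM + 1) tested 43 of the 45 members among 9955 genes with at least 1 FPKM in at least 3 libraries, and Psma8 and Psmb11 did not pass that filter. Differences on this scale understate those of low genes. In tumor-associated against control MLECs, 0 members passed an adjusted p of 0.05, which 3.93% of the genes tested passed, and 8 members had an unadjusted p under 0.05 (7 higher, 1 lower), which 19% of the genes had (12.7% higher, 6.32% lower). The same test called 0 members in GL261 against control (3.49% of the genes tested), where 10 had an unadjusted p under 0.05 (9 higher, 1 lower), against 16.9% of the genes (11.4% higher, 5.53% lower). In B16 against control 0 members were called (2.11% of the genes), and 6 had an unadjusted p under 0.05 (3 higher, 3 lower), against 15% of the genes (9.95% higher, 5.04% lower). In GL261 against B16 0 members were called (0.01% of the genes), and 5 had an unadjusted p under 0.05 (4 higher, 1 lower), against 5.5% of the genes (3.29% higher, 2.21% lower). The GL261 and B16 comparisons share the 3 control libraries. The 95% intervals below give the differences that these libraries allow.

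Psmb8 came nearest to a call among the interferon-inducible members. It was higher by 4.51 in GL261 than in control (95% interval 1.74 to 7.28, limma adjusted p = 0.0825) and by 3.45 in all tumor-associated libraries (0.95 to 5.95, adjusted p = 0.123), the latter falling to 1.47 without control replicate 1 (adjusted p = 0.343). With control replicate 1 left out, which listed Psmb8 at 0, the GL261 difference was 2.53 and was called (adjusted p = 0.0319), and it was also called at 5.91 without control replicate 3 (adjusted p = 0.0249). Without control replicate 1 and B16 replicate 1 together, a choice made after seeing the data, Psmb8 (2.53, adjusted p = 0.0438) and Psmb9 (2.30, adjusted p = 0.0415) were both called in GL261 against control. With all libraries kept, Psmb9 differed by 4.16 in that comparison (0.54 to 7.78, adjusted p = 0.220) and Psmb10 by 1.27 (-1.57 to 4.10, adjusted p = 0.674). With aligned reads as a covariate the GL261 differences were 5.70 for Psmb8, 0.094 for Psmb9 and -5.47 for Psmb10, and none was called. In B16 against control the differences were 2.40 for Psmb8 (-0.37 to 5.17), 0.12 for Psmb9 (-3.50 to 3.74) and -1.71 for Psmb10 (-4.54 to 1.13). Without control replicate 1 the B16 differences were 0.42 for Psmb8 and -1.74 for Psmb9. Without B16 replicate 1, where both genes were listed at 0, they were 2.03 for Psmb9 and 0.35 for Psmb10.

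For PA28, Psme1 differed by 0.27 in GL261 (-0.38 to 0.93, turning to -0.034 after rescaling) and by -0.91 in B16 (-1.56 to -0.25, adjusted p = 0.166) against control. Psme2 differed by 1.19 in GL261 (-0.01 to 2.38, adjusted p = 0.299) and by 0.09 in B16 (-1.11 to 1.28). Of the constitutive partners, the tumor-associated difference was 0.09 for Psmb5 (-0.85 to 1.04, turning to -0.13 after rescaling), -0.21 for Psmb6 (-0.84 to 0.43) and 0.54 for Psmb7 (-0.03 to 1.10, adjusted p = 0.286). The interval of Psmb8 thus excluded 0 before adjustment and those of Psmb5 and Psmb6 spanned it, and the difference between the genes was tested only by the ratios above.

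Between the tumors, the interferon-inducible members took the same order in all 5 cases. Every GL261 library was above every B16 library for 5 of 5 of these members, compared with 4 of the 31 core subunits, and 7.13% of the genes tested had this order. The differences of GL261 against B16 were 4.04 for Psmb9 (0.42 to 7.66), 2.97 for Psmb10 (0.14 to 5.81), 2.11 for Psmb8 (-0.66 to 4.88), 1.18 for Psme1 (0.53 to 1.84) and 1.10 for Psme2 (-0.09 to 2.30). Without B16 replicate 1 the difference was 2.12 for Psmb9 and 0.92 for Psmb10. None was called, with limma adjusted p from 0.334 for Psme1 to 1 for Psmb8, and in this comparison 1 gene of 9955 was called. The median difference was 2.11 over these 5 members, 0.06 over the 31 core subunits and 0.01 over all genes tested. After each library was rescaled to the same FPKM sum, these medians were 1.95, -0.10 and -0.12. Since by the labels tumor and time since injection went together, this order is one of samples and not of tumor type alone.

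**Figure D4:**
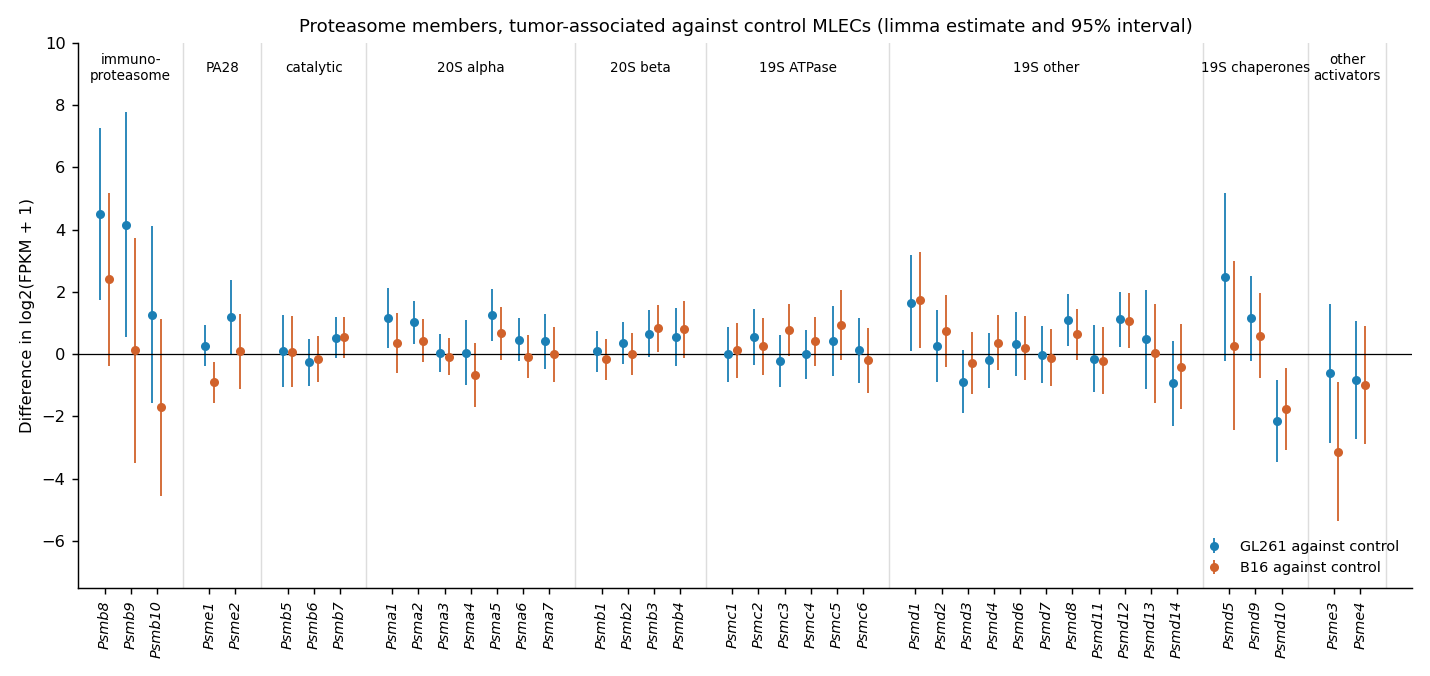
Differences in log2(FPKM + 1) from control for GL261 (blue) and B16 (orange), with 95% intervals from limma, for 41 of the 43 members tested (Psme2b and Psmc3ip are not drawn), by role. Psmb8 in GL261 has the largest estimate (4.51, 1.74 to 7.28), the intervals of most core subunits span 0, and Psmd10 lies below 0 in both tumors.

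Markers of other cells were read beside these values, because leukocytes carry immunoproteasomes. Of 15 leukocyte markers, 4 to 6 were above 0 in each control and B16 library and 6 to 10 in each GL261 library. Ptprc and Cd3e (a T cell receptor subunit) were listed at 0 in all 9 libraries. The 6 markers that could be tested were Fcer1g, C1qa, Aif1, Lyz2, Tyrobp and Cd68, of which 0 were called in any comparison (limma). The leukocyte markers summed to between 299.7 and 585 FPKM in the control libraries and between 43.1 and 309 FPKM in the B16 libraries. In GL261 replicates 1, 2 and 3 that sum was 141, 708 and 58.3 FPKM, beside 882, 726 and 599 FPKM for the 3 immunosubunits. The immunosubunits summed to at most 229 FPKM in a control or B16 library. Of 10 blood endothelial markers, 7 were called higher in tumor-associated MLECs (limma), among them Cd34, Flt1 and Ly6c1, and 2 of the 10 lay below 0. In GL261 against control 6 were called higher and 1, Cldn5, lower. The sum of the 10 markers went from at most 3165 FPKM in any control library to between 6081 and 9607 FPKM in the tumor-associated libraries. Of the 7 lymphatic markers tested, 6 lay below 0 and 1 above in tumor-associated MLECs, and Flt4, Mmrn1 and Reln were called lower. In B16 against control only Mmrn1 was called. The fibroblast and mural marker sum was 531, 47.5 and 16.03 FPKM in control replicates 1, 2 and 3 and at most 11.4 FPKM with tumors. Dcn, the only marker of that list tested, was called lower in both tumors (limma). The glial marker sum was 28.1 to 45.6 FPKM in B16 and at most 13.6 FPKM elsewhere. In B16 only 1 or 2 of the 7 glial markers were above 0, and S100b was the only one called. The melanoma marker sum was at most 0.783 FPKM in B16 and 4.07 FPKM in GL261. The part of the sorted cells' makeup in the proteasome values was not tested, and in pools of cells fewer cells of a type and less RNA per cell cannot be told apart.

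The positions of the interferon-inducible genes were taken from the mm9 build used for the files, with the GENCODE M1 annotation. Psmb9 lies on the minus strand at chr17:34318933-34324709 and Psmb8 on the plus strand at chr17:34334666-34338399, on either side of Tap1 in the MHC class II region. For Psmb9, which has 2 entries in that annotation, the longer was used. The annotated Psmb9 and Tap1 overlap by 212 bases on opposite strands and 495 bases lie between the end of Tap1 and the start of Psmb8, and the counting of strands is not given in the sources used here. Psmb10 is at chr8:108459628-108462292 on the minus strand. Psme1, at chr14:56196960-56200366 on the plus strand, and Psme2, at chr14:56206278-56209950 on the minus strand, are neighbours on the chromosome that also carries Psmb5 (chr14:55232644-55236851, minus strand).

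Promoter sequences of RefSeq (GRCm38.p6, 250 bases before to 50 bases after the start) were found for 38 of the 45 members and read for short motifs on both strands. The interferon-gamma activated site (GAS, letters TTCNNNGAA) was found in the window of Psmb8 only among the 5 interferon-inducible members, and in that of 1 of 25 core subunits, against 9.55% of 27025 genes. The interferon regulatory factor element (GAAA, any 2 bases and GAAA again) was found in the window of Psme1 only among the 5, and in those of 2 of 25 core subunits, against 3.99% of all genes. The core of the antioxidant response element, through which Nfe2l1 is known to drive proteasome genes (letters TGACNNNGC), was found in none of the 5 and in 4 of 25 core subunits, Psmb5 and Psmb6 among them, against 14.0% of all genes. Of the other motifs read, the CCAAT box was found in 1 of the 5 (Psmb9) and 10 of 25 core subunits, against 41.1% of all genes, and an NF-kB motif (GGGA, any 2 bases, TTCC) in none of either, against 1.63%. These windows of 30 bases are shown to set the sequence of the catalytic pair Psmb8 and Psmb5 and of Psme1 and Psmb6 side by side, 5′ to 3′ on the gene's strand, with the matched letters in capitals. For Psme1 the match is on the opposite strand and so reads in reverse complement.
Psmb8 (chr17:34198087-34198116, plus strand, GAS): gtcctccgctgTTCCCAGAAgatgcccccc
Psme1 (chr14:55578493-55578522, plus strand, regulatory factor element): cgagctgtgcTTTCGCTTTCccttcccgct
Psmb5 (chr14:54618024-54618053, minus strand, antioxidant response core): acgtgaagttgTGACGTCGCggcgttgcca
Psmb6 (chr11:70525337-70525366, plus strand, antioxidant response core): actaaagagagTGACGGAGCgctttacgac
A match describes these letters, not a bound site.

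The remaining core subunits were described by role, and those named singly in this and the next paragraph, other than Psmd1, Psmd3, Psmd14 and Psmb7, were picked after their values were seen. In the 20S alpha ring, the gate of the barrel, the control libraries summed to between 1329 and 1593 FPKM, the GL261 libraries to between 1878 and 2306 FPKM and the B16 libraries to between 1264 and 1811 FPKM. All 7 alpha subunits had a difference above 0 in GL261 against control (0.04 to 1.26), of which 5 stayed above 0 after rescaling each library to the same sum or after quantile normalization. The largest were Psma5, at 96.1 ± 36.5 FPKM in control and 221 ± 29.9 FPKM in GL261, and Psma2, at 233 ± 78.4 and 457 ± 76.8 FPKM (SD, n = 3 each), and both had separate groups and a limma adjusted p of 0.113. In B16 3 of the 7 were above 0. Over the 4 non-catalytic beta subunits the GL261 differences ran from 0.09 to 0.66, and from -0.22 to 0.35 after rescaling, where 1 of the 4 lay below 0. Over the 6 ATPases of the 19S base, the summed FPKM was 571 to 775 in GL261 and 774 to 922 in B16. Psmc3 and Psmc4 were lower in every GL261 library than in every B16 library, and Psmc2 was higher. Psmc3 was at 139, 118 and 72.5 FPKM in GL261 and at 259, 187 and 202 FPKM in B16, a difference of -1.003 (-1.84 to -0.17, limma adjusted p = 0.792).

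Over all 31 core subunits the median difference in tumor-associated MLECs was 0.21, close to the 0.20 of all genes tested, and it was -0.02 after rescaling and 0.05 after quantile normalization. Of the 31, 22 were above 0 as deposited, 15 after rescaling and 16 after quantile normalization, so the direction of the core as a whole depended on the scaling. The same rescaling moved the median of all genes from 0.20 to 0.05, and quantile normalization moved it to 0.03. In the values as deposited, members with separate tumor-associated and control libraries were Psmb7 and Psmd12 (2 of 43 higher, against 6.08% of the genes tested) and Psmd10 (1 lower, against 4.44%). In GL261 against control 12 members were separate and higher (13.7% of the genes) and 2 lower (8.84%), while in B16 against control 5 were higher (10.2%) and 3 lower (7%). In GL261 against B16 10 were higher (7.13% of the genes) and 3 lower (6.66%), the former including the 5 interferon-inducible members. Psmd12, a 19S lid subunit, was at 30.5, 51.3 and 36.6 FPKM in control, at 105, 74.0 and 78.7 FPKM in GL261 and at 86.4, 80.2 and 81.5 FPKM in B16. The difference was 1.10 (0.36 to 1.84, limma adjusted p = 0.0985). Psmd1, a large scaffold subunit of the 19S base, was at 25.1, 5.51 and 12.8 FPKM in control, at 36.4, 28.9 and 64.1 FPKM in GL261 and at 83.4, 20.2 and 47.6 FPKM in B16. It differed by 1.70 (0.43 to 2.96, adjusted p = 0.134), and 1 B16 library lay within the control range. At the other end, Psmd14, the deubiquitinase of the lid, differed by -0.67 (-1.82 to 0.49) and Psmd3, another lid subunit, by -0.58 (-1.47 to 0.32), and neither was called.

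The member nearest to a call was Psmd10, known as gankyrin, a chaperone of the 19S base that is also known as an oncoprotein. It was at 57.4, 72.8 and 48.1 FPKM in control, at 7.71, 20.7 and 11.5 FPKM in GL261 and at 13.3, 29.2 and 11.7 FPKM in B16. Every tumor-associated library was below every control library, with means of 15.7 ± 7.87 FPKM (SD, n = 6) and 59.4 ± 12.5 FPKM (SD, n = 3). The difference was -1.96 (-3.06 to -0.85, limma adjusted p = 0.0532), and it was -2.16 in GL261 and -1.76 in B16. It passed 0.05 under 4 of 19 alternatives, with adjusted p from 0.0353 to 0.477, and lay below 0 in all of them. The other 19S chaperones (Psmd9 was picked after its values were seen) did not share this order. Psmd9 was at 20.6, 6.20 and 12.6 FPKM in control, 39.4, 24.6 and 21.2 FPKM in GL261 and 23.2, 14.0 and 19.2 FPKM in B16. Psmd5 was at 18.6, 12.2 and 0 FPKM in control, 25.95, 33.1 and 46.7 FPKM in GL261 and 0.541, 10.99 and 23.6 FPKM in B16. For both, GL261 lay above control and B16 overlapped with it.

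**Figure D5:**
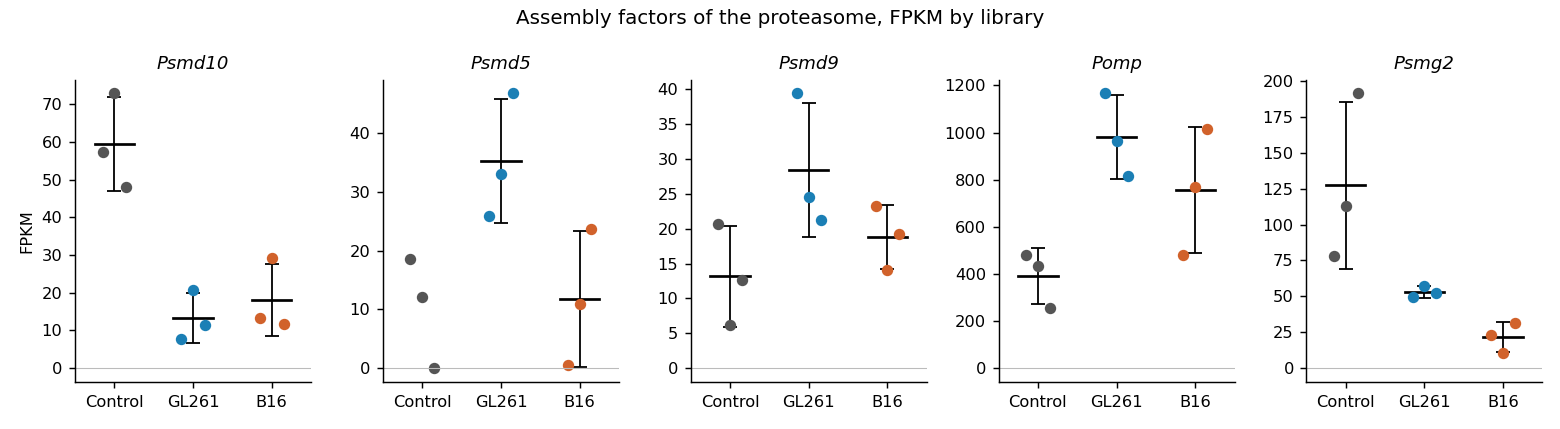
FPKM by library of the 19S chaperones Psmd10, Psmd5 and Psmd9 and of the 20S assembly factors Pomp and Psmg2, with 3 points per group. Bars show mean and SD and are left out where a library is listed at 0. Psmd10 is lower in all 6 tumor-associated libraries than in control (7.71 to 29.2 against 48.1 to 72.8 FPKM).

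The factors that build the 20S core lie outside the symbol pattern, and 6 of them were tested with the members. Pomp, the maturation factor of the core that is known to help Psmb8 into new cores, rose in GL261, from 481, 432 and 256 FPKM in control to 1166, 963 and 815 FPKM (difference 1.37, 0.65 to 2.08, limma adjusted p = 0.0429). In B16 it was at 481, 769 and 1017 FPKM, and the tumor-associated difference was 1.15 (adjusted p = 0.0501). The GL261 call of Pomp held in 5 of 19 alternatives, the difference turned to -0.31 (adjusted p = 0.922) with aligned reads as a covariate, and the call was lost after rescaling (1.06, adjusted p = 0.117) and without any 1 of the control or GL261 libraries or B16 replicate 2 (adjusted p 0.0525 to 0.176). Psmg2, a chaperone of the alpha ring, fell in B16, from 77.9, 113 and 191 FPKM in control to 23.3, 10.7 and 31.7 FPKM (difference -2.51, -3.66 to -1.37, adjusted p = 0.0338). In GL261 it was at 49.5, 57.5 and 52.5 FPKM, so that all tumor-associated libraries were below control, and the tumor-associated difference was -1.83 (adjusted p = 0.0874). The call of Psmg2 in B16 held in 6 of 19 alternatives, and it was lost without control replicate 2 or 3 (adjusted p 0.0525 and 0.0822) and without any 1 of the GL261 or B16 libraries (0.0509 to 0.0996).

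The alternative activators were low. Psme3 was at 22.2, 10.7 and 27.7 FPKM in control, at 7.48, 11.5 and 19.8 FPKM in GL261 and at 0, 0 and 10.4 FPKM in B16, so all B16 libraries were below control. Its tumor-associated difference was -1.87 (-4.13 to 0.38, limma adjusted p = 0.357). Psme4 was at 9.12 ± 5.64 FPKM in control and 3.94 ± 1.79 FPKM in tumor-associated libraries (SD, n = 3 and n = 6), with overlap. Psmc3ip was listed at 0 in all control libraries, at 15.2, 0.534 and 35.6 FPKM in GL261 and at 13.4, 0 and 0 FPKM in B16. Psmb11, the thymus subunit, and Psma8, the testis subunit, were each listed at 0 in 7 of 9 libraries and reached at most 2.26 and 5.78 FPKM, both in control.

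Partners of the members were read from lists outside the pattern. Of 17 receptors, shuttles and deubiquitinases tested, among them the ubiquitin receptor Adrm1, 0 were called in any of the 4 comparisons, and the median tumor-associated difference was 0.05. Of 5 genes that act in the transcription of proteasome genes, among them Nfe2l1 and Nfe2l2, 0 were called. Of 10 genes of interferon-gamma signalling, Socs1, a feedback inhibitor listed at 0 in all 3 control libraries, rose in GL261 to 56.8, 65.6 and 8.84 FPKM (limma adjusted p = 0.0306), and 10 of 18 alternatives kept the call. With aligned reads as a covariate the difference turned to -0.40 (adjusted p = 0.979). The call was lost without any 1 control library (adjusted p 0.0556 to 0.0656) and without GL261 replicate 1 or 2 (0.135 and 0.140). Of the 6 genes of peptide supply, Tap2 rose in tumor-associated MLECs, from 0.270, 12.04 and 1.10 FPKM in control to 19.1 to 52.2 FPKM in GL261 and 21.9 to 29.9 FPKM in B16 (difference 3.18, 1.60 to 4.77, adjusted p = 0.0292). The call of Tap2 held in 9 of 19 alternatives and was lost without control replicate 1 (2.503, adjusted p = 0.0954) or control replicate 3 (2.86, adjusted p = 0.0836), without any 1 GL261 library (adjusted p 0.0512 to 0.0688) and without B16 replicate 2 or 3 (0.05001 and 0.0584).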

How the data were processed

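Libraries were made with Smart-seq2 and 18 PCR cycles and sequenced as 150 bp pairs. The authors removed adapters and low-quality reads, aligned to mm9 with TopHat2 2.0.12, computed expression with Cufflinks 2.2.1 and deposited FPKM per gene symbol, with no read counts, and the strand setting is not given in the sources used here. The labels give injection into the cisterna magna and the methods a subdural injection. The members and lists were chosen with earlier results of these data known. Named in full were the interferon-inducible members and their partners, the 5 highest and 5 lowest members by tumor-associated difference, members listed at 0 in at least 3 libraries, and up to 4 genes of each other list with the lowest p. Replicates were separate pools of mice.

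log2(FPKM + 1) was fitted with limma 3.58.1 in R 4.3.3 (lmFit, eBayes with a trend), two-sided, with Benjamini-Hochberg adjustment over 9955 genes. GL261 and B16 were joined for the tumor-associated comparison, and 3 groups sharing 1 estimate of spread gave the others. Ratios were tested with an exact permutation test over libraries. The scripts were tested on simulated data. Tables and figures used Python 3.11.15, pandas 2.3.3 and matplotlib 3.10.9. Alternatives covered the pseudocount, scaling, filters, variance trend, replicate block, aligned reads as a covariate, and each library left out. A gene of the interferon-gamma list is not reported here.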

Additional observations from a re-analysis of the deposited data

Results flagged for a closer look

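In 21 values examined over the 6 tumor-associated libraries (log2(FPKM + 1), or log2 ratios), 5 had 1 library far from the rest by Dixon's criterion. Its chance rate of about 1 in 20 assumes 1 normal sample. These values join GL261 and B16 and include values of 0, so that rate need not apply and the count is not read as an excess. B16 replicate 1 was listed at 0 for Psmb9, with the nearest library at 5.39, and at 0 for Psmb10, with the nearest at 5.73. Its log2 ratio of Psmb10 to Psmb7 was -8.10, with the nearest at -2.15, which follows from the same value of 0. Psma8 was at 1.33 in B16 replicate 3 and Psmb11 at 0.73 in B16 replicate 2, and both were listed at 0 in the other 5 tumor-associated libraries. With 5 values at 0, any single value above 0 is flagged.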

How the results depend on the processing

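In tumor-associated against control MLECs 1 member, Psmd10, was called after rescaling, among genes with a mean FPKM of at least 10, and among genes above 0 in all 9 libraries, instead of 0. With single libraries left out, 0 to 1 members were called in this comparison (Psmb8 without control replicate 3, Psmd10 without B16 replicate 2) and 0 to 1 in GL261 against control (Psmb8 without control replicate 1 or 3), and 2 (Psmb8, Psmb9) without control replicate 1 and B16 replicate 1 together. The ratio of Psmb8 to Psmb5 ranged from 1.41 to 4.64, that of Psmb9 to Psmb6 from 0.33 to 3.79 and that of Psmb10 to Psmb7 from -1.10 to 0.39.

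With aligned reads as a covariate, differences turned sign for Psmb9 (-2.67 in tumor-associated MLECs, -2.02 in B16), Psmb10 (-5.47 in GL261, -0.22 in GL261 against B16), Psme2 (-0.090), Psmb5 (-0.85), Psmd5 (-2.47), Pomp in GL261 (-0.31) and Socs1 in GL261 (-0.40), none of them called. The cause was not tested. After rescaling, Psme1 in GL261 was at -0.034, Psme2 in B16 at -0.058 and Psmb5 at -0.13, and after quantile normalization Psme2 in B16 was at -0.073 and Psmb5 at -0.10. Without control replicate 1 and B16 replicate 1, Psmb10 was at 0.88 in tumor-associated MLECs and 0.33 in B16. With single libraries left out, Psmb9 in B16 ranged from -1.74 to 2.03, Psmb10 from -0.57 to 0.90 in tumor-associated MLECs and from -2.96 to 0.35 in B16, Psme2 from -0.11 to 1.14 in tumor-associated MLECs and from -0.66 to 0.59 in B16, and Psmb5 from -0.12 to 0.32.

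Replicate numbers did not pair the libraries, as 0 of 9 same-numbered pairs had deviations correlated above 0.1 (-0.03 to 0.04). With a replicate block 0 members were called in each comparison, and Psmd10 had an adjusted p of 0.0601 in tumor-associated MLECs.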
